A study of Caenorhabditis elegans with 2 samples.

Results

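The 7 LIM homeobox genes lim-4, lim-6, lim-7, lin-11, mec-3, ceh-14 and ttx-3, together with ldb-1, which encodes the LIM domain binding partner of their proteins, were examined for occupancy by LIM-7 in Caenorhabditis elegans. They were taken by name, and make up 8 of 19973 annotated protein-coding genes. Of the 8 genes, 1 held a summit of the thresholded peak list, against 8.43% of all protein-coding genes. A conservative list, made from its own ranking, had a summit at 2, against 7.71%. The windows of 4 lay inside long stretches where the candidate list of both replicates held nothing at all, against 25.6% of genes. The assay was ChIP-seq, chromatin immunoprecipitation followed by sequencing of the DNA recovered with a protein, in whole larvae of the fourth stage (L4) at 48.5 hours. The samples were 2 biological replicates of 1 group of strain OP779, so there was no other condition to compare. All animals carried the array wgIs779, which holds lim-7 fused to TY1, EGFP and 3xFLAG tags together with a wild-type copy of unc-119, in the unc-119 mutant background tm4063. They were synchronised as L1 larvae starved after bleaching, chromatin was sheared by sonication, and an antibody against GFP was used. Chromatin of all cells was pooled, so a site bound in few cells and a site bound weakly in many cannot be told apart. A control experiment that the labels mention as possible was not analysed here.

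LIM homeodomain proteins bind DNA through a homeodomain, commonly at sites with the core letters TAAT, and bind other proteins through their paired LIM domains. LDB-1 belongs to a family of adaptors that join LIM domains to one another, and such complexes specify the identity of neurons and other cells. LIM-7 is of the Islet class and is known from the gonadal sheath and from neurons. The other proteins have their own cells: MEC-3 the touch receptor neurons, TTX-3 the AIY interneurons, CEH-14 the thermosensory AFD neurons, LIM-4 the olfactory AWB neurons, LIM-6 several GABA neurons, and LIN-11 the vulva and several neurons.

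The sequences below are shown because they carry the strongest signals at lim-6, the member with a thresholded peak, and at ldb-1. Each holds 100 bases around a summit, read 5′ to 3′ from the WBcel235 genome (ce11), with the strand given. Capitals mark 15 letters that the lim-6 site shares with an annotated leucine tRNA gene, and the ldb-1 sites have no capitals.
lim-6 site, X:1070730-1070829, minus strand: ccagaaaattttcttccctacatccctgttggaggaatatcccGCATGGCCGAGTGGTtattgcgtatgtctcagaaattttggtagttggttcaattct
ldb-1 upstream site, X:11026913-11027012, plus strand: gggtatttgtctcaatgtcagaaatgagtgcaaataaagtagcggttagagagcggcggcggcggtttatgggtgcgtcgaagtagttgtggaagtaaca
ldb-1 intron site, X:11031293-11031392, plus strand: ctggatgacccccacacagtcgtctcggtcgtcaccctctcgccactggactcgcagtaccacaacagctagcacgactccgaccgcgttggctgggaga
None of these windows held TAAT on either strand. The shared run GCATGGCCGAGTGGT started at position 9 of its tRNA gene, in the region that holds the A box, a promoter element inside tRNA genes that is read by the RNA polymerase III machinery. It occurred in 1 of 612 annotated tRNA genes. Among 1258 summits of the thresholded list that lay over 500 bp from any short noncoding gene, 54 (4.29%) shared a run at least as long with a tRNA gene, and the median longest run was 9 letters. This search was chosen after the lim-6 sequence had been seen. The ldb-1 sites shared runs of 11 and 8 letters. Their GC content was 48.0% upstream and 63.0% in the intron, and that of the lim-6 site was 43.0%.

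The authors deposited ranked lists of all candidate peaks and thresholded lists of those that passed a limit on irreproducible discovery rate (IDR, an estimate of how many of the peaks ranked at least as high would fail to reappear in a replicate). The thresholded list of both replicates held 1804 peaks, the conservative list 1649, and those of replicate 1 and replicate 2 alone held 883 and 920. The conservative list came from its own ranking of 84309 candidates with the same IDR limit of 0.01, and is not a subset of the first. The ranked lists behind the others held 84720 candidates for both replicates, 66957 for replicate 1 and 76263 for replicate 2. A list of a single replicate comes from that replicate alone, so its IDR does not tell whether a peak reappears in the other. Signal values are the authors', have no stated scale, and served only for ranks and descriptions inside 1 list. Their medians were 104.6 over the thresholded list and 29.6 over the ranked list of both replicates. Read depth was not analysed here and is unknown. A gene's window ran from 2000 bp upstream of its start to its end, and positions below count from the gene start in the direction of the gene, with negative values upstream.

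A summit of the thresholded list lay in the window of 1 of the 8 genes, lim-6, against 8.43% of all protein-coding genes. The conservative list had a summit at 2 members, lim-6 and lim-7, against 7.71% of genes. The list of replicate 1 had none at any member, against 4.13% of genes, and the list of replicate 2 had 1, at lim-6, against 4.29%. Longer windows hold more summits: among genes with windows of similar length, meaning at least 0.8 times the member's and at most the member's divided by 0.8, the share with a thresholded summit ran from 8.39% for genes like mec-3 to 15.1% for genes like ldb-1. Such shares describe the list and carry no test.

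lim-6, which encodes an Lmx-class protein (WBGene00002988, X, 1072452 to 1079452, plus strand), had the strongest peak of all 8 genes. Its signal was 160.4, rank 478 of 1804 in the thresholded list and rank 572 of 84720 candidates, with an IDR of 5.28e-04. In replicate 2 the same site had a signal of 92.8 at rank 486 with an IDR of 0.00102. Replicate 1 had no candidate there: a stretch of 27543 bp without a candidate covered the site and 40.7% of the lim-6 window in that list. Among the single lists the peak was thus seen in replicate 2 only, and a 0 in such a stretch is no measurement of absent binding. In the conservative ranking the IDR of the site was 6.11e-04, at rank 575 of 84309.

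The lim-6 summit lay in the intergenic interval between lim-6 and mksr-1, which encodes a protein of the ciliary transition zone (WBGene00019364, X, 1066606 to 1069129, minus strand). The genes point away from each other, and the summit was 1672 bp from the start of lim-6 and 1651 bp from that of mksr-1, so the peak cannot be assigned to one of them. The nearest short noncoding gene, a tRNA gene, was 18465 bp away. Among 1852 genes of similar window length, 96.1% had a weaker best candidate or none, where genes without a candidate count as lower. Among those with a candidate, 95.1% had a weaker best. The other 9 candidates of lim-6 ranked no better than 11457 of 84720. The best of them lay in an intron at 3014 with a signal of 52.3 for both replicates, 32.0 in replicate 1 and 20.6 in replicate 2. A stretch of 36940 bp without candidates ended at the lim-6 peak on its upstream side in the list of both replicates.

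lim-7 itself (WBGene00002989, chromosome I, 5716574 to 5725809, plus strand) held several moderate candidates near its start. The transgene carries lim-7 sequence too, and signal from the native gene and from the transgene cannot be told apart. The strongest candidate was at -29, next to the gene start, with a signal of 86.6 for both replicates, 34.8 in replicate 1 and 52.5 in replicate 2. It ranked 1665 of 84720 with an IDR of 0.0164, just outside the limit of 0.01 seen in the thresholded list. In the conservative ranking its IDR was 0.00941, just inside that limit.

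Further lim-7 candidates lay on either side of the start. At -1904 the signal was 71.3 for both replicates (IDR 0.0276), 32.3 in replicate 1 and 39.9 in replicate 2. In an intron at 1805 it was 70.2 for both replicates (IDR 0.0134), 46.4 in replicate 1 and 33.4 in replicate 2. The intron candidate was the strongest of lim-7 in replicate 1 and the one at the start was the strongest in replicate 2, so the replicates order them differently. A weaker intron candidate at 851 had 57.6, and the last, at -1110, had 5.37. lim-7 thus had 3 candidates with an IDR of 0.05 or less in the list of both replicates, and 35 of 1223 genes of similar length (2.86%) held at least as many. The count rested on the combined list: replicate 1 had 2, at -29 (IDR 0.0398) and at 821 (IDR 0.0395), and replicate 2 had none, with 0.202 as its lowest IDR. The sites that passed in replicate 1 were thus not those of the combined list, apart from the one at the start. Counting several candidates per gene was not planned and was set up around lim-7. In the planned measure, the best candidate of lim-7 was above that of 87.2% of the 1223 genes, where those without a candidate count as lower. Among those with a candidate it was 84.5%.

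The best-ranked 10% of each list gave a further count, which was also not planned. In the list of both replicates 4 of the 5 lim-7 candidates were among them, a count reached by 61 of the 1223 genes (4.99%). Replicate 1 had 2 such candidates, reached by 220 of those genes, and replicate 2 had 3, reached by 8.50%. The same count in the list of both replicates was 1 at lim-6, reached by 46.0% of genes of its length, 1 at ceh-14, reached by 40.8%, and 2 at ldb-1, reached by 30.2%. ldb-1 had 4 in replicate 2, reached by 4.36%, and none in replicate 1. With 20 kb added on each side of a gene, the best-ranked 10% of the list made up 33.3% of 24 candidates around lim-7, 26.7% of 15 around ttx-3, 21.4% of 28 around lin-11 and 17.5% of 40 around lim-6. Around ldb-1, mec-3, ceh-14 and lim-4 the shares were 7.32%, 8.33%, 5.66% and 3.85%. Whether transgene sequence adds to the signal in the lim-7 flanks was not tested.

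**Figure D1:**
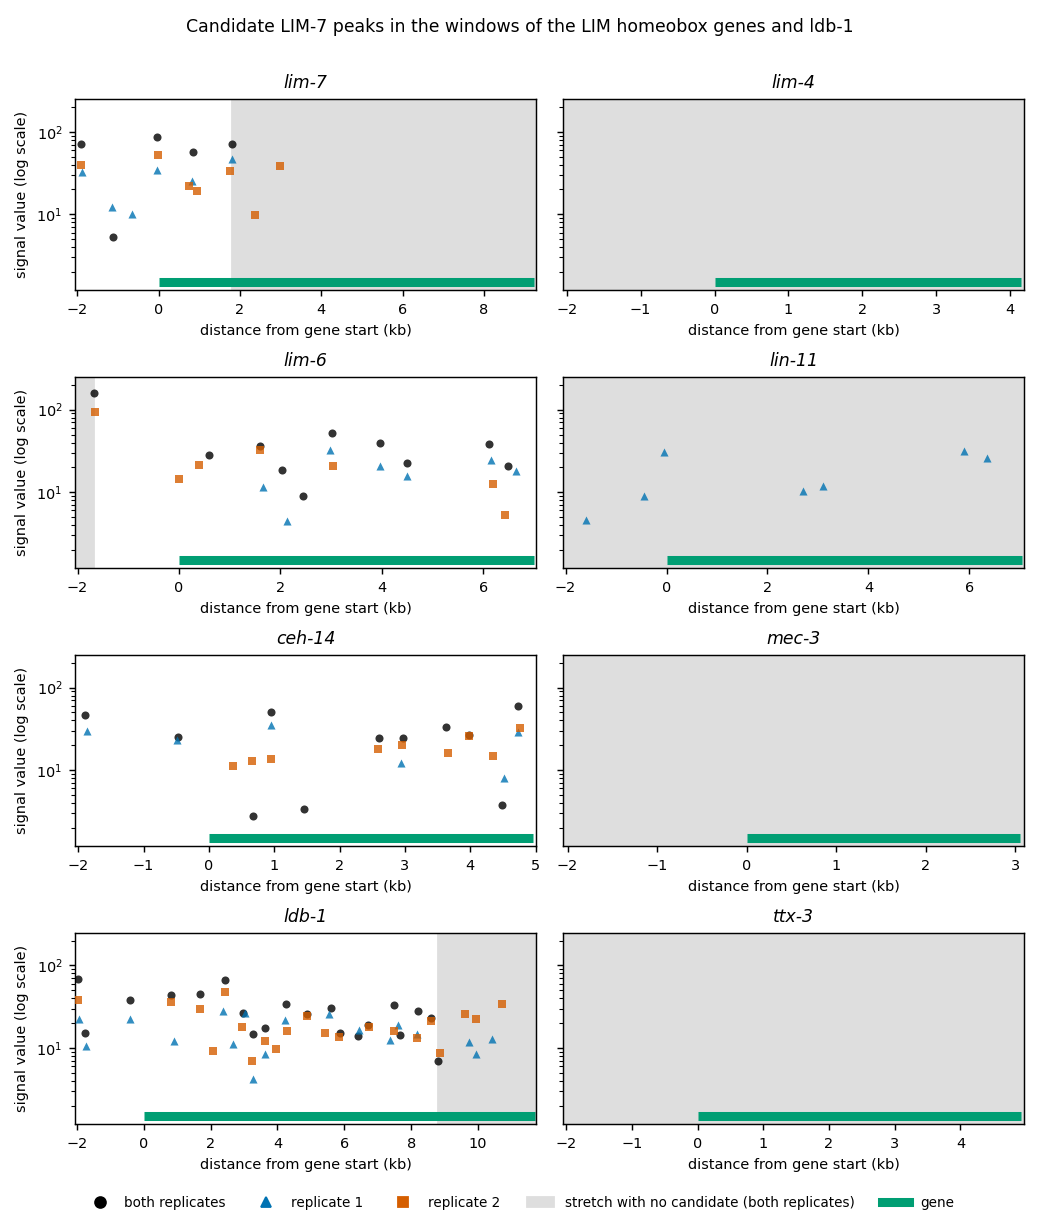
Signal value of each candidate peak (log scale) against its distance in kb from the gene start, for the 8 members, in the ranked lists of both replicates (black circles), replicate 1 (blue triangles) and replicate 2 (orange squares). Grey marks stretches without candidates in the list of both replicates and green the gene. The lim-6 peak at 160.4 stands highest, lim-7 has its candidates near the start, and lim-4, mec-3 and ttx-3 hold none in any list.

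ldb-1 (WBGene00002261, X, 11028917 to 11040612, plus strand) held 20 candidates for both replicates, where similar genes with any candidate had a median of 15. Its strongest candidate, the upstream site shown above at -1954, had a signal of 68.2 for both replicates, 22.3 in replicate 1 and 38.5 in replicate 2, with an IDR of 0.0926. The intron site at 2426 had 66.4 for both replicates, 28.4 in replicate 1 and 47.9 in replicate 2, with an IDR of 0.138. In the conservative ranking the IDR of the intron site was 0.0403 and that of the upstream site 0.164. Both signals were higher in replicate 2, but values of separate lists share no scale. The other 18 candidates had signals of 44.9 or less. Among 848 genes of similar length, 69.2% had a weaker best candidate or none. The nearest thresholded summit was 65073 bp upstream, 16 bp from a tRNA gene.

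ceh-14, which encodes an Lhx3/4-class protein (WBGene00000438, X, 7527769 to 7532732, minus strand), held 11 candidates, where similar genes with any had a median of 8. The strongest lay at 4731, in the 3′ UTR, with a signal of 59.7 for both replicates, 29.3 in replicate 1 and 32.3 in replicate 2, and an IDR of 0.445, against 0.0732 in the conservative ranking. The next, in an intron at 956, had 50.7 for both replicates, 35.3 in replicate 1 and 13.4 in replicate 2. The replicates differ on which of these is stronger. Among 3081 genes of similar length, 64.5% had a weaker best candidate or none. Among those with a candidate, 54.6% had a weaker best. A window reaching 5000 bp upstream added a candidate 4248 bp upstream of ceh-14 with a signal of 67.3 and an IDR of 0.0335.

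Counted over members, 2 of 8 (lim-6 and lim-7) held a candidate with an IDR of 0.05 or less in the list of both replicates, against 18.2% of all genes. Among genes of similar length this share was higher for most members, from 17.7% for genes like mec-3 to 32.7% for genes like ldb-1. It was 28.5% for genes like lim-6 and 31.2% for genes like lim-7. The shares below are of all genes, without regard to length. Replicate 1 alone gave 1, lim-7, against 7.20% of genes, and replicate 2 alone gave 1, lim-6, against 8.06%. The conservative ranking gave 3, adding ldb-1, against 16.4%. At an IDR of 0.01 only lim-6 was left, against 8.58% of genes, and at 0.1 ldb-1 joined lim-6 and lim-7, against 26.6%. Windows reaching 1000 bp upstream left lim-7 alone, against 15.0%, and windows reaching 5000 bp added ceh-14 to lim-6 and lim-7, against 26.3%. The candidate list of both replicates had 46 candidates in the windows of 4 members. Of these, 25 lay in introns, 9 between genes, 7 in coding sequence and 5 in UTRs, and none lay within 500 bp of a short noncoding gene. A candidate of each single replicate overlapped 24 of the 46 by at least 1 bp, and 2 overlapped neither. These 24 are not all separate sites in the single replicates. The ldb-1 candidates at -1954 and -1743, for example, overlapped the same candidate of each replicate.

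**Figure D2:**
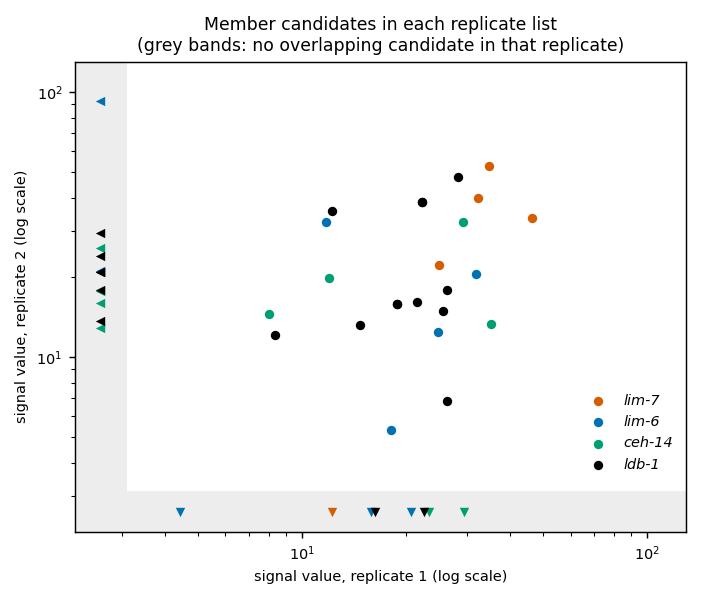
Signal of the strongest candidate of replicate 1 (x axis) and of replicate 2 (y axis) that overlaps each member candidate of both replicates, on log scales with no stated unit, coloured by gene. Grey bands hold candidates with no overlap in that replicate, and the 2 with none in either replicate are not shown. The lim-6 peak, at 92.8 in replicate 2, lies in the band without replicate 1, and the 4 strongest lim-7 candidates have values in both.

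The letters TAAT were found on either strand in 24 of the 46 windows of 100 bases around these summits, against 49.5% of all 84720 candidate windows. TAATTA was found in 1, against 2.67% of all candidates, TAATG in 9, against 13.8%, and CTAATG in 2, against 2.57%. Each of these longer motifs contains the core letters. The strongest candidate of each of lim-6, lim-7, ceh-14 and ldb-1 held no TAAT. The lim-7 candidates at -1904, 851 and 1805 each did. In the thresholded list, whose windows are richer in GC at 50.2% against 42.0% over all candidates, TAAT was in 32.4%, TAATTA in 0.942%, TAATG in 8.98% and CTAATG in 2.05%.

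lim-4 (WBGene00002987, X, 3869404 to 3873545, minus strand), mec-3 (WBGene00003167, IV, 10458816 to 10461867, minus strand) and ttx-3 (WBGene00006654, X, 11764456 to 11769378, minus strand) had no candidate in any of the 4 ranked lists. lin-11 (WBGene00003000, chromosome I, 10248288 to 10255327, plus strand) had none in the list of both replicates or in that of replicate 2, but 7 in replicate 1. The highest of these had a signal of 31.6, rank 8265 of 66957, with an IDR of 0.738. In the list of both replicates 4 of 8 members thus held no candidate, against 25.9% of genes. The count was 4 in the conservative ranking, against 26.0% of genes, 3 in replicate 1, against 20.8%, and 4 in replicate 2, against 21.1%. The 3 members empty in every ranked list compare with 13.9% of all genes. On X, 29.7% of genes held no candidate, and 5 of the 8 members are on X, lim-4 and ttx-3 among them. The share was 33.5% on IV, the chromosome of mec-3, and 19.5% on chromosome I, that of lin-11. Of 4081 genes of similar length to lim-4, 931 held none (22.8%). For lin-11 it was 353 of 1840, for mec-3 1477 of 5903, and for ttx-3 677 of 3121.

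**Figure D3:**
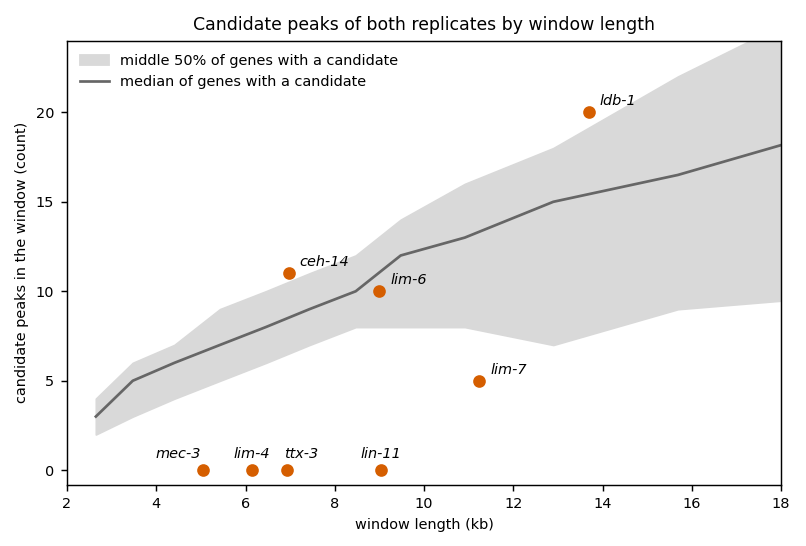
Number of candidate peaks of both replicates in each member's window (orange points) against window length in kb, with the median (line) and the middle 50% (grey) of protein-coding genes that hold a candidate. ldb-1 and ceh-14 lie above the line, lim-7 with 5 lies below it, and lim-4, lin-11, mec-3 and ttx-3 lie at 0.

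The empty windows lay inside long stretches without candidates. Neighbouring summits of the list of both replicates were a median of 588 bp apart. Only 8 distances fell between 8000 and 10000 bp, yet 270 fell between 10000 and 12000 bp. Summits more than 8000 bp apart bounded 1855 stretches, which made up 39.6% of the genome and wholly contained 5120 protein-coding genes (25.6%). The stretch around mec-3 was 49900 bp long for both replicates, 51896 bp in replicate 1 and 46190 bp in replicate 2. That around lim-4 was 26573 bp for both replicates, 22279 bp in replicate 1 and 16369 bp in replicate 2. The ttx-3 stretch was 18042 bp for both replicates, 13670 bp in replicate 1 and 13862 bp in replicate 2. lin-11 lay in a stretch of 21201 bp for both replicates and 18794 bp in replicate 2, with none in replicate 1.

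Such stretches also reached members that had candidates. One of 24557 bp began at the lim-7 intron candidate and ran to 17126 bp past the gene end, so that 66.1% of the lim-7 window lay inside it. Replicate 1 had 66.2% and replicate 2 had 55.6% of that window in such a stretch. One began inside ldb-1 and took 21.1% of its window, although both single replicates held candidates in that end of the gene. Of the bases in replicate 1 stretches, 78.2% lay in those of replicate 2, and 72.3% the other way. Sequence inside the stretches had 33.4% GC and 40.2% masked as repeats, against 36.8% and 32.7% outside. The cause of the stretches was not tested, and the lists used here may hold only part of what the experiment called. A count of 0 in such a stretch is therefore no measurement of absent binding at lim-4, lin-11, mec-3 or ttx-3. Among 11150 genes whose window touched no such stretch, 11.7% held a thresholded summit. ceh-14 is the one member among them, and it held none.

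**Figure D4:**
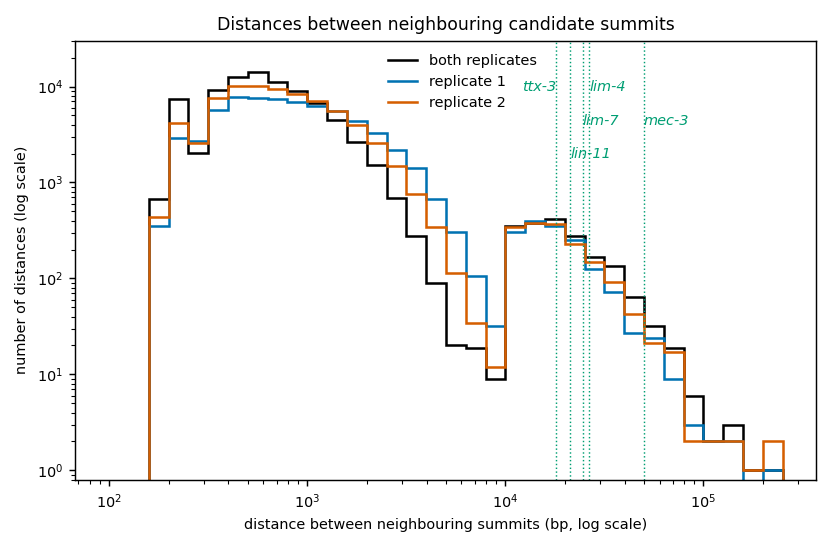
Number of distances between neighbouring candidate summits (log scale) by length in bp (log scale), for the ranked lists of both replicates, replicate 1 and replicate 2. Dotted lines mark the stretches at ttx-3, lin-11, lim-7, lim-4 and mec-3, from 18042 to 49900 bp, all beyond the step at 10000 bp.

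Outside the windows, the nearest thresholded summit was 9571 bp upstream of lim-7. With a signal of 822.2, against up to 5711 in the ranked list of both replicates, it was the strongest of the thresholded list. It lay 43 bp from the snoRNA gene T19B4.8. Whether transgene sequence adds to the signal there was not tested. The nearest to ttx-3 was 11476 bp downstream of its start, with a signal of 372.6, 12 bp from a tRNA gene. The nearest to lin-11 was 17104 bp upstream and had 83.9. For lim-4, mec-3 and ceh-14 the distances were 53290, 58404 and 148344 bp. Part of the way to the nearest summit lay in a stretch without candidates for lim-4, mec-3, ttx-3 and lin-11. On the downstream side it reached 37816 bp from the start of mec-3 and 12252 bp from that of lim-4. These distances are therefore no measurement of absent binding closer to the genes.

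Genes that work with or downstream of the members were counted from 4 lists. The partner genes unc-86 and ceh-10, homeobox genes whose products act with MEC-3 and TTX-3, and sam-10, whose product acts with LDB-1, gave 0 of 3 with a thresholded summit. The share of all genes with a thresholded summit was 8.43%. The best candidates of these 3 genes had signals of 43.2, 39.1 and 31.2. Stretches without candidates covered 71.2% of the unc-86 window and 93.9% of the sam-10 window. Of 8 touch receptor genes known to need mec-3, 0 had a thresholded summit. A candidate with an IDR of 0.05 or less was held by 1, mec-2 (signal 70.8, IDR 0.0184), against 18.2% of all genes. mec-17 followed with 67.7 and mec-4, a channel subunit for touch, with 63.2. Of 10 genes needing ttx-3, ceh-10 or lim-6, or marking AIY or GABA neurons, 1 had a thresholded summit, at 5458 in the amine receptor gene ser-2 (signal 313.4), 34 bp from the start of a tRNA gene. Next came unc-17 with 73.5, mod-5 with 67.1 and cho-1 with 62.1. ser-2, mod-5 (IDR 0.0303) and cho-1 (IDR 0.0208) were the 3 of these 10 genes with an IDR of 0.05 or less. No candidate was held by 2 of these 10 genes and by 2 of the 8 touch receptor genes. Their windows lay wholly inside stretches without candidates, where a 0 is no measurement of absent binding.

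Of 14 genes with LIM domains but no homeobox, 3 had a thresholded summit. In unc-115, an actin-binding protein gene, the best signal was 255.9, 32 bp from a tRNA gene, and in lim-8 it was 189.7, 13 bp from one. The unc-97 summit, at -1133 from a muscle attachment gene, had 96.4, and its nearest short noncoding gene was 106254 bp away. The next candidates were those of mlp-1 with 80.3, pin-2 with 76.9 and unc-95 with 72.5. The pin-2 candidate (IDR 0.243) lay 37 bp from an snRNA gene. For mlp-1 and unc-95 the nearest short noncoding gene was 41329 and 13867 bp away. Of the 14 genes, 5 had a candidate with an IDR of 0.05 or less. Together, 4 of the 35 listed genes (11.4%) had a thresholded summit, against the 8.43% of all genes, and 9 (25.7%) had a candidate with an IDR of 0.05 or less, against the 18.2%. No candidate was held by 7 of the 35, against the 25.9% of all genes. Windows of these 35 genes ran from 2698 to 40919 bp, and longer windows hold more summits. The lists were not compared with genes of similar length, so these shares do not show an excess or a lack at the listed genes.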

How the data were processed

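Peak lists of 2 biological replicates of LIM-7 ChIP-seq were analysed. The labels give the ce11 assembly, and all peaks lay within the chromosome lengths of the WBcel235 reference. Which aligner and peak caller were used is not given in the sources used here. The signal value of each peak, and the −log10 of the global IDR in the ranked lists, are as the authors deposited them. All thresholded peaks had an IDR of 0.01 or less in their ranked list, and a further filter by the authors had removed some that passed it (1964 candidates against 1804 peaks for both replicates). A total of 16 columns of single inputs in the ranked lists were not used. Read depth is unknown.

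Gene windows used Ensembl release 115. Short noncoding genes are tRNA, snRNA, snoRNA, miRNA and rRNA genes. Isotypes matched 607 of 612 tRNA genes. Letters were searched on both strands of 100 bases around a summit. With 1 group no test was made, and replicates describe only their own spread. The members and lists were chosen with earlier results of these data known. The distance of 8000 bp that defines a stretch was chosen after seeing the data. The counts of several candidates per gene were not planned. The text names all members, genes that place a member's strongest candidate, and from each list those with a thresholded summit and up to 3 others with the best rank. T19B4.8 was named after its value was seen. Summit counting was tested on 2000 simulated windows, with 0 wrong counts. Python 3.11.15, numpy 2.4.6, pandas 2.3.3 and matplotlib 3.10.9 were used.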

Additional observations from a re-analysis of the deposited data

How the results depend on the processing

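No paired analysis was possible because there was only 1 group. The count of members with a thresholded summit was 1, as was the count of such summits. Each was 2 in the conservative list, 0 to 1 when either replicate was left out, and 0 in windows reaching 1000 bp upstream or spanning 1000 bp before to 200 bp after the start. Each stayed at 1 with windows reaching 5000 bp, any overlap of the peak, the peaks with signal above the median only, or without summits near short noncoding genes. The share of all genes with a summit, 8.43%, became 7.71% in the conservative list and 4.13% to 4.29% with a replicate left out. It was 6.71% and 12.6% with windows reaching 1000 and 5000 bp upstream, 3.30% in the promoter window, 8.93% with any overlap, 4.26% in the part of the list above its median signal and 6.33% without summits near short noncoding genes. Members with a candidate at an IDR of 0.05 or less, 2 as reported, were 1 at an IDR of 0.01, 1 with either replicate left out and 1 with windows reaching 1000 bp. They were 3 at 0.1, in the conservative ranking and with windows reaching 5000 bp, and the share of all genes moved with each setting, between 7.20% and 26.6%. Stretches without candidates made up 39.6% of the genome and 31.2% to 33.7% with a replicate left out; the alternatives on stretches were chosen after seeing the data. The cause of these changes was not tested. Peak lists carry no read depth, so whether a weak or missing candidate reflects depth was not tested.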
